A study of Homo sapiens with 6 samples.

Results

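The mitochondrial ribosomal proteins described here are the 78 protein-coding genes whose symbol is MRPL or MRPS followed by digits and, in some, a letter. They were taken by symbol alone from the 60612 genes of the deposited count tables, and 49 are named for the large subunit (MRPL) and 29 for the small subunit (MRPS). RNA was sequenced from SKBR3, a line of mammary epithelial breast cancer cells with an amplified ERBB2 gene, the gene of the receptor HER2. One group of 3 libraries, called trastuzumab here, came from SKBR3 cells kept under increasing doses of trastuzumab, an antibody against HER2, for 30 weeks, and the other 3, called parental here, from SKBR3 cells with no treatment. The labels do not say whether the drug was present at harvest, whether the treated cells were a clone, or whether the replicates were separate cultures, so the p-values below speak only of the spread among these 6 samples, part or all of which may be technical. Levels are in CPM, the usual unit of a gene's count relative to its library total, here scaled by edgeR's TMM factors, and every fold change is a log2 value of trastuzumab minus parental with its standard error (SE). A gene is called changed where edgeR's quasi-likelihood test gave a Benjamini-Hochberg adjusted p below 0.05 over all 17854 genes tested, and all 78 members were among these.

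The mitochondrial ribosome translates the few mRNAs of the mitochondrial genome, which encode core subunits of the respiratory chain and of the ATP synthase. Its rRNAs are made inside the organelle, but its proteins are encoded in the nucleus, made in the cytosol and imported. Some of them descend from proteins of the bacterial ribosome, and others are found only in mitochondria. The large subunit forms the peptide bond and holds the exit tunnel, and the small subunit binds the mRNA and reads its codons.

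The members differ widely in base composition, and this property ran alongside their fold changes, so the starts of 4 coding sequences are shown first. MRPL12 and MRPL23 had higher RNA levels in the trastuzumab libraries, and MRPL42 and MRPL50 lower levels. None of these 4 calls held in a fit corrected for GC content and length, described below. Each line gives the first 120 coding bases from GENCODE 29 transcripts on hg38, 5′ to 3′ from the start codon, with every G and C in capitals.
MRPL12, chr17:81703357-81707526, + strand: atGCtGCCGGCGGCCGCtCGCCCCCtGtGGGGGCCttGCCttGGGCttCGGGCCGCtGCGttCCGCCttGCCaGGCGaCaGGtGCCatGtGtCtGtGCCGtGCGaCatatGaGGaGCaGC
MRPL23, chr11:1947278-1984522, + strand: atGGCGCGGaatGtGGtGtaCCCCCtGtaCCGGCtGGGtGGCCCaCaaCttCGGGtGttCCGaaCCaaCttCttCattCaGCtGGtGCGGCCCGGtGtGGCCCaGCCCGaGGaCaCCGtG
MRPL42, chr12:93467488-93516213, + strand: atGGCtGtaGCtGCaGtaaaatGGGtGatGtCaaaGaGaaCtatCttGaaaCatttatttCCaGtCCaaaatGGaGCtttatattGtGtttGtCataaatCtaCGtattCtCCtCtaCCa
MRPL50, chr9:101387633-101398614, - strand: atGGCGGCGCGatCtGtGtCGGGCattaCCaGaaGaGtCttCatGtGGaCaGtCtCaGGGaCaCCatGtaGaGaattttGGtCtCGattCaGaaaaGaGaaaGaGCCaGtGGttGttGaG
G and C made up 60.8% of the whole coding sequence in MRPL12 and 61.8% in MRPL23, against 42.2% in MRPL42 and 43.7% in MRPL50. Over all transcripts of each gene, with the untranslated parts included, the shares were 64.6% in MRPL12, 62.7% in MRPL23, 37.5% in MRPL42 and 35.0% in MRPL50.

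Of the 78 genes, 30 rose and 15 fell in the trastuzumab libraries, and 33 did not pass the test. The changes were small. Called rises were between 9.94% and 46.3% with a median of 21.6%, and called falls were between 9.35% and 43.6% with a median of 22.6%. MRPL19, a large subunit protein, was the single called member with a change of at least 1.5-fold, a size reached by 21.2% of all tested genes. Among all tested genes 49.3% were called changed, 23.9% as higher and 25.4% as lower, and among protein-coding genes 59.7% were called, 28.6% as higher and 31.1% as lower. The members' shares were 38.5% higher and 19.2% lower. Log2 changes smaller than 0.25 in size were seen in 59.0% of the members and in 32.9% of the protein-coding genes tested. The members' median log2 fold change was 0.08, beside -0.0057 over all tested genes. The 2 groups of libraries did not overlap in 35 members that were higher in trastuzumab and in 18 that were lower, 44.9% and 23.1% of the members. Of all tested genes 57.5% did not overlap, 28.3% as higher and 29.2% as lower. Among the 13569 protein-coding genes tested, 4369 did not overlap as higher and 4624 as lower. The split of the calls depended on the scaling, with 32 higher and 13 lower under relative log expression factors, 39 and 12 under upper quartile factors, 21 and 17 with library totals alone, and 21 and 20 by limma on log2(FPKM + 1) of the deposited values.

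**Figure D1:**
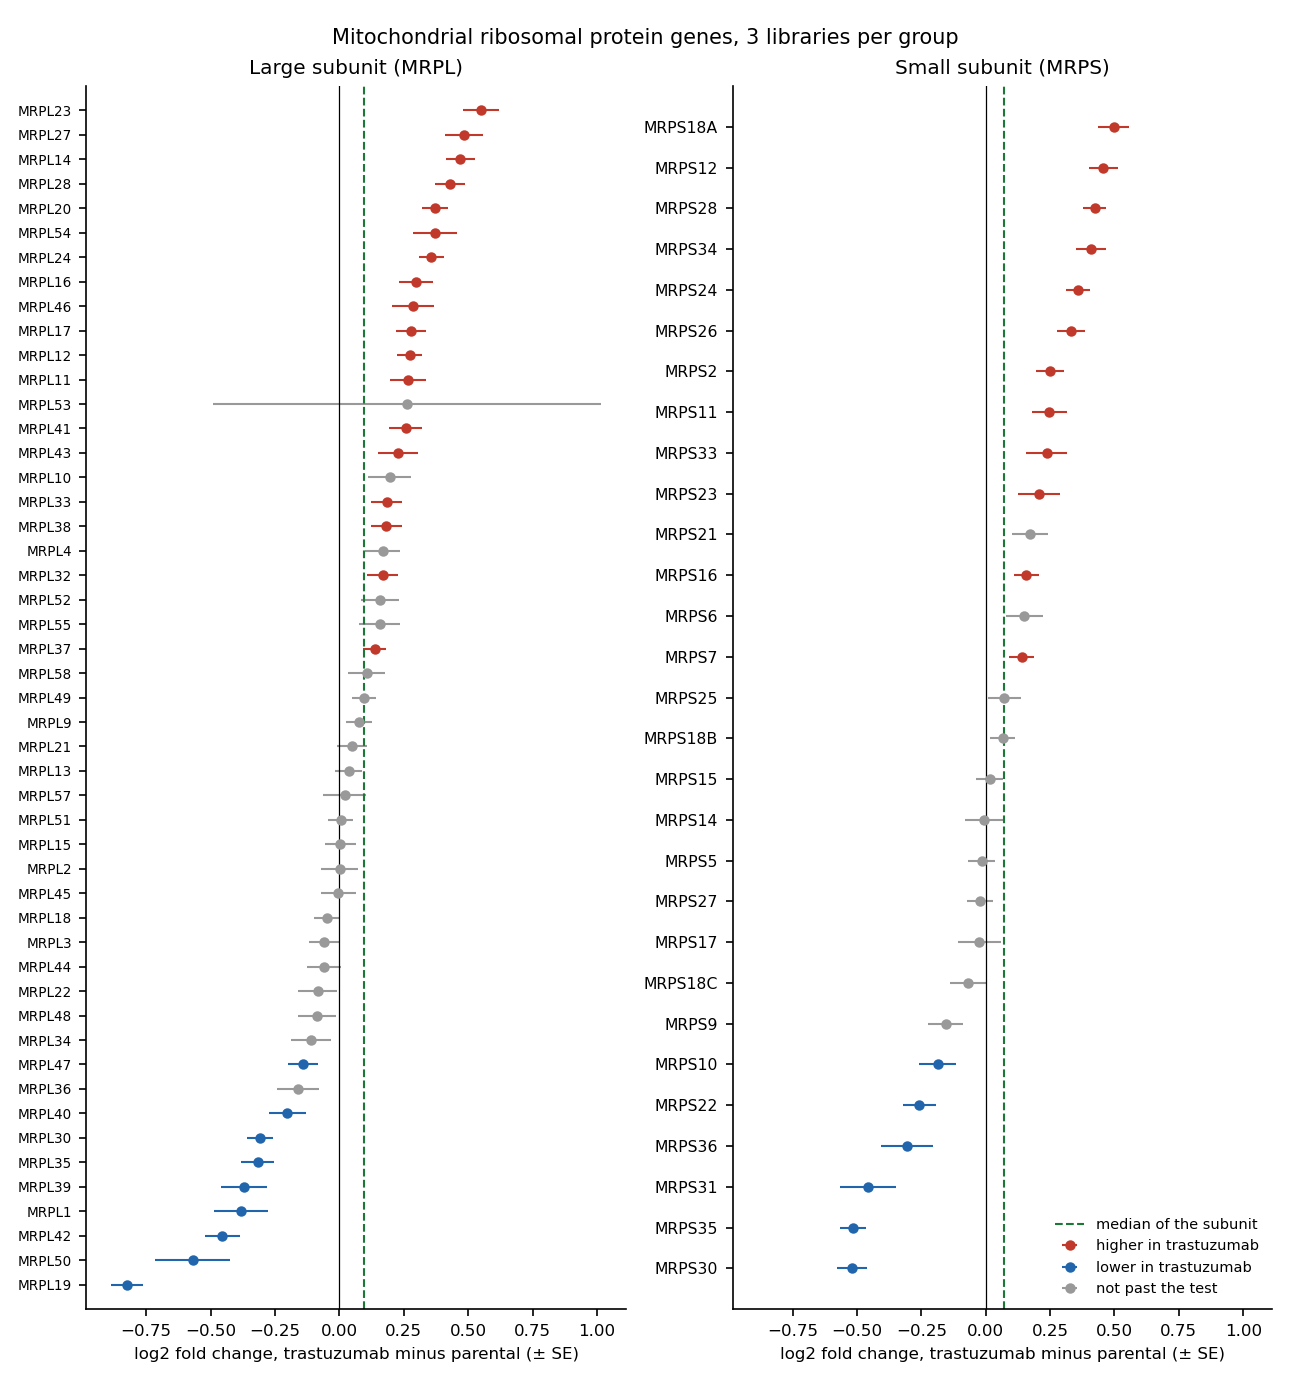
The log2 fold change of each member (trastuzumab minus parental, points with SE) in the large subunit on the left and the small subunit on the right; red marks genes called higher in trastuzumab, blue genes called lower, grey genes not past the test, and the dashed line is the median of the subunit, 0.09 for the large and 0.07 for the small. Most members lie within 0.5 of 0, both subunits hold rises and falls, and the long bar is MRPL53.

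The largest fall was that of MRPL19, the mitochondrial counterpart of bacterial protein L19. It stood at 48.9, 43.9 and 46.0 CPM in the trastuzumab libraries, against 87.2, 80.7 and 78.0 CPM in the parental libraries. The groups were far apart, and the log2 fold change was -0.83 ± 0.06 (SE, n = 3 per group; edgeR adjusted p = 1.93e-08). MRPL50, a protein found only in mitochondrial ribosomes, had the lowest counts of the falling members. Its level was 9.71, 9.03 and 6.77 CPM in trastuzumab libraries and 14.6, 12.4 and 10.8 CPM in parental libraries. The log2 fold change was -0.57 ± 0.15 (edgeR adjusted p = 0.00371). The highest trastuzumab library lay close below the lowest parental one. MRPL42, also specific to mitochondria, was measured at 43.2, 41.0 and 43.5 CPM in trastuzumab libraries and 61.9, 60.1 and 52.9 CPM in parental libraries, again with no overlap.

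Falls between -0.31 and -0.38 on the log2 scale were found in MRPL1, MRPL39, MRPL35 and MRPL30. MRPL1 belongs to the L1 stalk, which moves the outgoing tRNA in bacterial ribosomes, and averaged 12.7 ± 0.74 CPM in trastuzumab and 16.5 ± 1.92 CPM in parental libraries (SD, n = 3 each). MRPL30 averaged 82.5 ± 3.48 CPM in trastuzumab and 102.3 ± 1.37 CPM in parental libraries (SD, n = 3 each), with an edgeR adjusted p of 7.15e-05. MRPL40, a protein of the central protuberance, changed by -0.20 ± 0.07 (edgeR adjusted p = 0.0297). Its call was lost when trastuzumab replicate 2 or 3 or parental replicate 1 or 3 was left out, with edgeR adjusted p between 0.053 and 0.114. MRPL47, the counterpart of bacterial L29 at the tunnel exit, passed the test at an edgeR adjusted p of 0.0497. Without any 1 of the libraries other than parental replicate 2 it did not pass, and the adjusted p lay between 0.0702 and 0.164.

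The largest rises of the large subunit were those of MRPL23, MRPL27, MRPL14 and MRPL28. MRPL23, which sits at the tunnel exit in bacteria, was measured at 56.7, 63.3 and 55.6 CPM in trastuzumab libraries and at 38.0, 39.4 and 42.7 CPM in parental libraries. Every trastuzumab library lay above every parental one, and the log2 fold change was 0.55 ± 0.07 (SE, n = 3 per group; edgeR adjusted p = 6.13e-06). MRPL27, whose bacterial counterpart reaches into the peptidyl transferase centre, had 34.7, 33.3 and 33.5 CPM in trastuzumab and 22.9, 24.2 and 25.4 CPM in parental libraries. MRPL14, which lies at the face towards the small subunit, rose by 0.47 ± 0.06 (edgeR adjusted p = 3.34e-06), and MRPL28 by 0.43 ± 0.06 (edgeR adjusted p = 1.27e-05). The other large rises were 0.37 in MRPL20 and in MRPL54, 0.36 in MRPL24 and 0.30 in MRPL16. MRPL24 was among the most abundant of them, at 216.0 ± 12.5 CPM in trastuzumab and 168.7 ± 4.94 CPM in parental libraries (SD, n = 3 each).

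In the small subunit the largest falls were those of MRPS30, MRPS35 and MRPS31. MRPS35, specific to mitochondria, had 79.5, 78.6 and 76.9 CPM in trastuzumab libraries, against 114.4, 106.5 and 115.1 CPM in parental libraries. The trastuzumab libraries were tightly grouped and well below the others, with a log2 fold change of -0.52 ± 0.05 (SE, n = 3 per group; edgeR adjusted p = 3.32e-07). MRPS30 changed by nearly the same amount, -0.52 ± 0.06 (edgeR adjusted p = 1.69e-06), and MRPS31 by -0.46 ± 0.11 (edgeR adjusted p = 0.00188). MRPS22, in which inherited variants cause a mitochondrial disease with respiratory chain deficiency, averaged 50.7 ± 2.80 CPM in trastuzumab and 60.6 ± 3.43 CPM in parental libraries (SD, n = 3 each). MRPS10 and MRPS36 fell by 0.19 and 0.31 on the log2 scale, and neither call was stable. The MRPS10 call was lost without any single trastuzumab library or parental replicate 1, with log2 fold changes from -0.21 to -0.11 and edgeR adjusted p from 0.0512 to 0.217. The MRPS36 call was lost without trastuzumab replicate 2 or 3 or parental replicate 1, with edgeR adjusted p from 0.0634 to 0.118.

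The small subunit rises were led by MRPS18A, MRPS12, MRPS28 and MRPS34. MRPS12 is the counterpart of the decoding protein S12, the site of streptomycin resistance in bacteria. It stood at 113.7, 127.9 and 118.2 CPM in trastuzumab libraries and 89.7, 83.0 and 89.5 CPM in parental libraries. No library of one group entered the range of the other, and the log2 fold change was 0.46 ± 0.06 (SE, n = 3 per group; edgeR adjusted p = 3.49e-06). MRPS28 had 166.6, 172.7 and 170.5 CPM in trastuzumab and 130.5, 123.9 and 125.9 CPM in parental libraries, with an edgeR adjusted p of 8.96e-07. MRPS34 had 203.1, 215.7 and 208.3 CPM in trastuzumab and 148.8, 149.6 and 174.5 CPM in parental libraries, where parental replicate 3 stood above the other parental libraries. Smaller rises were measured for MRPS24 (0.36), the counterpart of S3 at the mRNA entry, for MRPS26 (0.33), and for MRPS2 and MRPS11 (both 0.25).

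**Figure D2:**
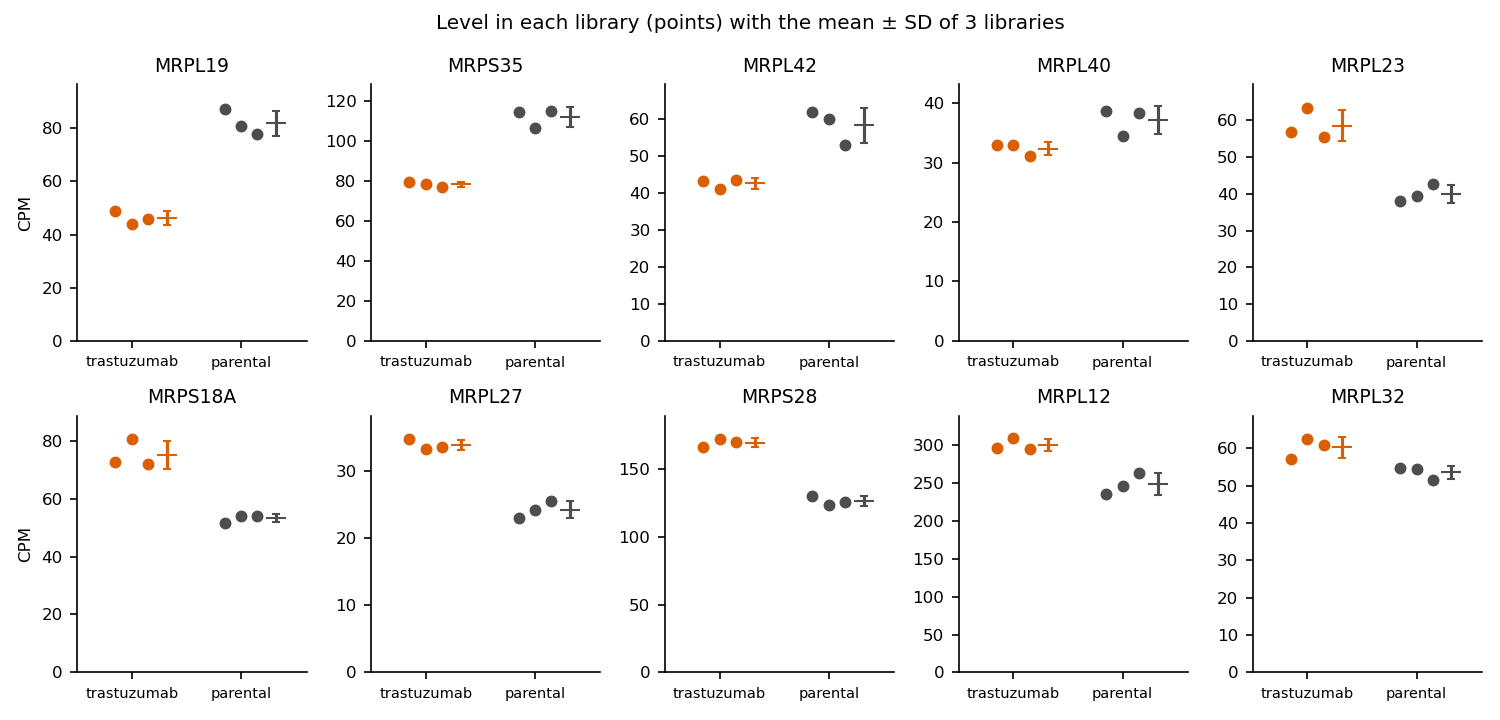
Level in CPM of 10 members in each library (points), with the mean and SD of 3 libraries beside them; trastuzumab libraries are on the left in orange and parental libraries on the right in grey, and every axis starts at 0. The groups do not overlap in any of these 10 genes, MRPL19 averaging 46.3 CPM in trastuzumab and 82.0 CPM in parental libraries and MRPL23 58.5 and 40.0 CPM.

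Rises and falls were found in both subunits. Of the 49 large subunit genes 18 rose, 9 fell and 22 did not pass the test. Of the 29 small subunit genes 12 rose, 6 fell and 11 did not pass. The shares called higher and lower were 36.7% and 18.4% in the large subunit and 41.4% and 20.7% in the small. Among all protein-coding genes tested they were 28.6% and 31.1%. The median log2 fold changes of the large and the small subunit were 0.09 and 0.07. The middle part of the distribution, between the quartiles, ran from -0.085 to 0.26 in the large subunit and from -0.07 to 0.25 in the small. Summed over its genes, the large subunit took 3529, 3600 and 3452 CPM in trastuzumab libraries and 3295, 3227 and 3346 CPM in parental libraries. The small subunit took 2442, 2510 and 2407 CPM in trastuzumab and 2232, 2179 and 2286 CPM in parental libraries. Both sums were thus higher in every trastuzumab library than in every parental one. The ratio of the large to the small sum, which no scaling of a library can alter, was 1.45, 1.43 and 1.43 in trastuzumab libraries and 1.48, 1.48 and 1.46 in parental libraries. The groups did not overlap, but the difference of -0.04 on the log2 scale was a shift of a few percent, and no p-value was computed for a sum over these genes. In the deposited FPKM values, which divide by gene length, the ratio was 1.57 ± 0.024 in trastuzumab and 1.62 ± 0.018 in parental libraries (SD, n = 3 each), and the groups did not overlap there either.

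**Figure D3:**
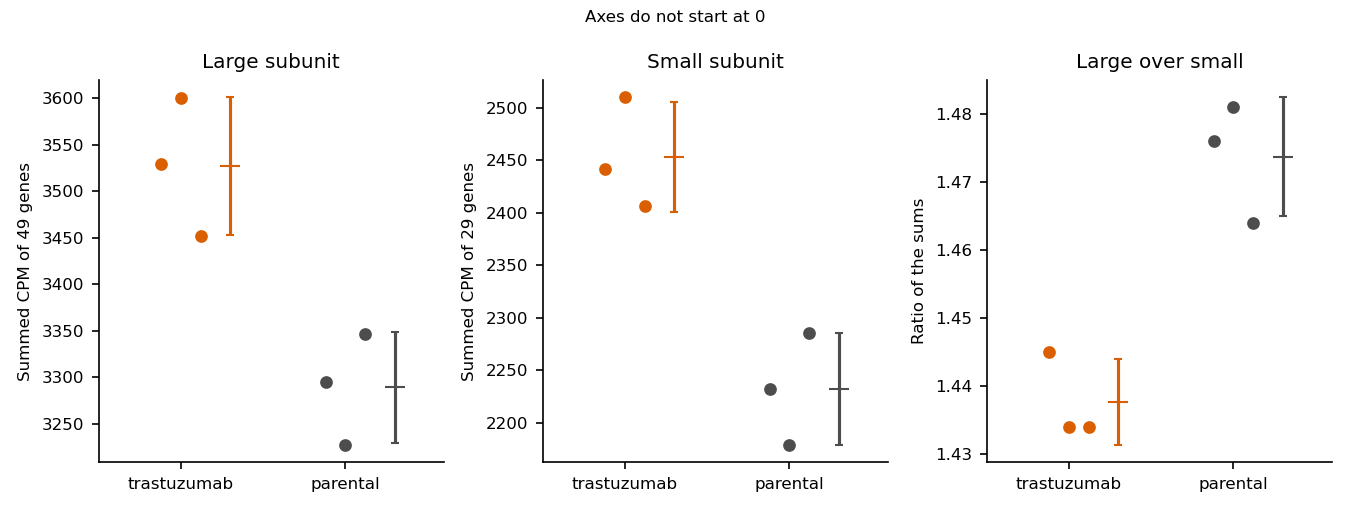
Summed CPM of the 49 large subunit genes, of the 29 small subunit genes and the ratio of the sums in each library (points), with mean and SD of 3 libraries; trastuzumab is left of parental, and the axes do not start at 0. Both sums are higher in all 3 trastuzumab libraries, and the ratio is lower, with means of 1.44 in trastuzumab and 1.47 in parental libraries.

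The symbols do not always give the place of a protein. In the structures of the human ribosome MRPS30 and MRPS18A lie in the large subunit, and MRPS36 was later found to be part of the 2-oxoglutarate dehydrogenase complex rather than of the ribosome. With these moved, 19 genes rose and 10 fell of 51 in the large subunit, and 11 rose and 4 fell of 26 in the small, with median log2 fold changes of 0.09 and 0.11. The shares called higher and lower were 37.3% and 19.6% in the large and 42.3% and 15.4% in the small, beside 28.6% and 31.1% of protein-coding genes. The ratio of the sums was then 1.59, 1.58 and 1.57 in trastuzumab and 1.64, 1.64 and 1.62 in parental libraries. MRPS18A itself had 72.5, 80.5 and 72.1 CPM in trastuzumab libraries and 51.6, 54.0 and 53.9 CPM in parental libraries, with a log2 fold change of 0.50 ± 0.06 (SE, n = 3 per group; edgeR adjusted p = 2.99e-06). It is 1 of 3 paralogues of bacterial S18, each placed elsewhere in the ribosome. MRPS18B averaged 163.9 ± 7.57 CPM in trastuzumab and 156.5 ± 4.21 CPM in parental libraries, and MRPS18C 27.1 ± 1.06 and 28.4 ± 0.74 CPM (SD, n = 3 each). Neither passed the test, with edgeR adjusted p of 0.286 and 0.485, and in both the libraries of the 2 groups overlapped. This contrast did not hold in the corrected fit. There MRPS18A did not pass the test, MRPS18B was lower at -0.13 (edgeR adjusted p = 0.0274) and MRPS18C higher at 0.37 (edgeR adjusted p = 0.000857). Of 48 members with a bacterial counterpart 20 rose and 6 fell (median 0.14), and of 30 found only in mitochondria 10 rose and 9 fell (median 0.05). Called higher and lower were 41.7% and 12.5% of the 48 and 33.3% and 30.0% of the 30, beside 28.6% and 31.1% of protein-coding genes. With the correction for GC content and length described below, the counts were 13 higher and 12 lower of the 48 and 5 higher and 6 lower of the 30, and the difference between these sets was not tested.

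Of 3 regions of the large subunit, 1 held rises without falls and the other two held both. These regions were picked after the values had been seen. At the base of the stalk that recruits translation factors, MRPL11 and MRPL12 rose by 0.27 each, and MRPL10 was at 0.20 ± 0.08 (edgeR adjusted p = 0.0655). In the central protuberance MRPL46 rose by 0.29 and MRPL38 by 0.18, MRPL40 fell by 0.20, and MRPL48 was at -0.09 (edgeR adjusted p = 0.362). The MRPL46 call was lost without trastuzumab replicate 3 or parental replicate 2 (edgeR adjusted p = 0.0697 and 0.0515), and the MRPL38 call without trastuzumab replicate 1 or 2 or parental replicate 1 (edgeR adjusted p from 0.0512 to 0.113). Around the tunnel exit MRPL23 and MRPL24 rose, MRPL47 and MRPL39 fell, and neither MRPL22, at -0.085, nor MRPL45, a membrane anchor of the ribosome, at -0.0046, passed the test. With correction for GC content and length, a fit described below, MRPL23, MRPL24, MRPL39 and MRPL11 did not pass the test, while MRPL22 was higher at 0.32 (edgeR adjusted p = 0.0067) and MRPL47 higher at 0.16 (edgeR adjusted p = 0.0272). In the same fit MRPL12, MRPL38 and MRPL40 were lower and MRPL46 higher.

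Fold changes of the members went with the GC content of their transcripts. Across the 78 genes, which share the same 6 libraries, Spearman's rho between GC content and log2 fold change was 0.67 (Pearson r = 0.66), and within the large and the small subunit rho was 0.59 and 0.77. Over the 13569 protein-coding genes tested it was 0.57. Coding sequence alone gave 0.703 over the 75 members with a coding sequence that was read here, which left out those on chromosome 8. Over the same 75 members transcript GC content gave nearly the same value, 0.695. Exonic length gave a weaker relation in the members, with a rho of -0.17, than in all protein-coding genes, with -0.29. With protein-coding genes split into 5 bins of equal size by exonic length, 48 of the 78 members lay in the shortest bin. Of all genes in that bin 39.3% were called higher and 11.9% lower, with a median log2 fold change of 0.23. Of the members there 19 were higher and 8 lower, with a median of 0.09, and 17 lay above the median of the genes. Among the 26 members richest in GC 16 rose and 1 fell, with a median of 0.26, and among the 26 poorest 5 rose and 14 fell, with a median of -0.17. In the 26 between them 9 rose and none fell. All protein-coding genes tested were also split by GC content into 5 bins of equal size. In the poorest bin, with GC content from 32.0% to 42.3%, 67.3% of genes were called lower and 2.95% higher, and 11 of the 16 members there were lower and 1 higher. In the richest bin, from 58.8% to 74.7%, 56.4% of genes were called higher and 4.79% lower, and 10 of the 12 members there were higher and none lower.

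The members' medians were also set beside those of all protein-coding genes in the same bin. In the poorest bin the median log2 fold change was -0.31 for the members and -0.49 for all protein-coding genes, and 13 of 16 members lay above the median of the genes. In the second poorest bin the medians were -0.01 and -0.29, with 14 of 16 members above, and in the middle bin 0.11 and 0.0034, with 16 of 19 above. In the second richest bin they were 0.20 and 0.25, with 6 of 15 members above. In the richest bin the medians were 0.30 and 0.37, with 4 of 12 members above. In 4 of the 5 bins the members' median was closer to 0 than that of all genes, and in the middle bin it was farther from 0. The subunits were spread unequally over this scale, with a median GC content of 51.5% in the large subunit and 47.9% in the small. Within the poorest bin the medians were -0.31 for 9 large and -0.305 for 7 small genes, and within the second poorest bin they were -0.06 for 9 large and 0.15 for 7 small genes. In the middle bin the order was turned, with 0.13 for 10 large and 0.07 for 9 small genes. In the second richest bin the medians were 0.14 for 13 large and 0.43 for 2 small genes, and in the richest 0.27 for 8 large and 0.37 for 4 small genes. These medians within bins rest on few genes and were not tested.

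**Figure D4:**
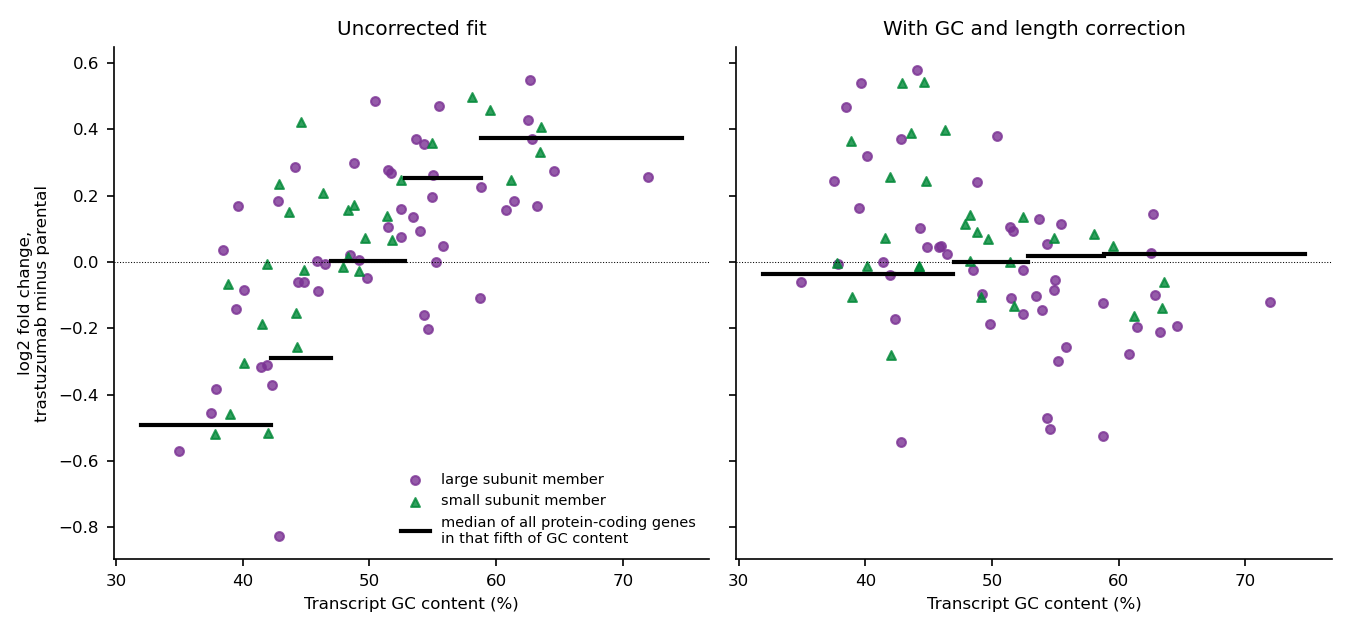
The log2 fold change (trastuzumab minus parental) of each member against the GC content of its transcripts, in the uncorrected fit on the left and after correction for GC content and length on the right; purple circles are large subunit genes, green triangles small subunit genes, and black bars the median of all protein-coding genes in each of 5 bins of GC content. On the left the black bars climb from -0.49 to 0.37 and the members climb with them; on the right the bars lie between -0.04 and 0.02 and the members slope downwards.

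A second edgeR fit took a smooth trend on GC content and exonic length out of each library. It removes real changes that go with GC content along with technical ones, and which of these the trend holds was not tested. In this fit 18 members were higher and 18 lower, where 37.3% of all 17649 genes tested were called, 18.3% as higher and 19% as lower. Among protein-coding genes 44.5% were called, 21.7% as higher and 22.8% as lower. The members' median log2 fold change in this fit was 0.0002. The large subunit had 10 higher and 14 lower with a median of -0.03, and the small subunit 8 higher and 4 lower with a median of 0.07. The members' corrected values ran against GC content, with a rho of -0.445, where all protein-coding genes had 0.049. Of the 30 rises 10 kept their direction and passed the test, 15 no longer passed and 5 were called lower. Of the 15 falls 3 remained, 10 no longer passed and 2 were called higher.

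The 3 falls that remained were MRPL19, MRPS35 and MRPL40. MRPL19 kept most of its size, at -0.54 ± 0.05 with correction (SE, n = 3 per group; edgeR adjusted p = 2.58e-07). The correction took MRPL19 to have 4601 exonic bases, whereas its FPKM values imply a length of 10163 bases. Its GC content and length may therefore describe another gene model than the one counted, and a correction with the longer model was not tested. MRPS35 was at -0.28 ± 0.05 with correction (edgeR adjusted p = 0.000204). MRPL40, with a GC content of 54.6%, was at -0.50 ± 0.07 with correction (edgeR adjusted p = 2.08e-05), lower than without it, and lies in the bin of GC content where 48.7% of genes were called higher. The 10 rises that remained were those of MRPL16, MRPL20, MRPL27, MRPL32, MRPL33, MRPL46, MRPS16, MRPS23, MRPS28 and MRPS33. MRPL27 was at 0.38 ± 0.07 with correction (edgeR adjusted p = 0.000283) and MRPS28 at 0.54 ± 0.04 (edgeR adjusted p = 2.27e-08). MRPL32, the counterpart of bacterial L32 and a substrate of the mitochondrial m-AAA protease, had a GC content of 39.7%. It was measured at 57.1, 62.5 and 61.0 CPM in trastuzumab libraries and 54.7, 54.5 and 51.6 CPM in parental libraries, groups that lay close together without overlap. Its log2 fold change was 0.17 ± 0.06 without correction (edgeR adjusted p = 0.0278) and 0.54 ± 0.06 with it (edgeR adjusted p = 1.15e-06). The uncorrected call was lost when trastuzumab replicate 2 or 3 or parental replicate 2 or 3 was left out, with edgeR adjusted p from 0.0505 to 0.107. Uncorrected calls were also lost in at least 1 such fit for MRPL33, MRPS16, MRPS23 and MRPS33, whose log2 fold change with all libraries was between 0.16 and 0.24. Without parental replicate 2, MRPS23 was at 0.13 (edgeR adjusted p = 0.249), against 0.21 with all libraries.

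The 7 members with opposite calls in the 2 fits were MRPL12, MRPL37, MRPL38, MRPS2 and MRPS26, higher before and lower after correction, and MRPL42 and MRPL47, lower before and higher after. MRPL12, which forms the stalk in several copies, had 295.5, 309.4 and 294.6 CPM in trastuzumab libraries and 235.1, 245.7 and 263.7 CPM in parental libraries. The log2 fold change of 0.27 ± 0.05 (edgeR adjusted p = 0.000169) became -0.19 ± 0.04 with correction (edgeR adjusted p = 0.000484). MRPL42 was at -0.45 ± 0.07 before (edgeR adjusted p = 3.62e-05) and 0.24 ± 0.05 after correction (edgeR adjusted p = 0.00144). No direction can be given for these genes that holds in both fits. MRPL37, higher before correction by 0.14 ± 0.05, lost that call without trastuzumab replicate 2 or parental replicate 2 (edgeR adjusted p = 0.0818 and 0.0751). Some genes gained a call. MRPL13 was at 0.04 before and 0.47 after correction (edgeR adjusted p = 1.37e-07), and MRPL34 at -0.11 before and -0.52 after (edgeR adjusted p = 1.53e-05).

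Levels per gene length were compared through the deposited FPKM values. The median member was at 17 FPKM in trastuzumab and 18 FPKM in parental libraries. MRPL12 was highest, at 255.1 ± 6.71 FPKM in trastuzumab and 221.5 ± 10.7 FPKM in parental libraries (SD, n = 3 each). MRPS34 was next, at 164.3 ± 4.64 FPKM in trastuzumab and 130.0 ± 10.7 FPKM in parental libraries. MRPS16, in which a variant causes a fatal mitochondrial disease, followed at 105.7 ± 5.59 FPKM in trastuzumab and 99.5 ± 3.07 FPKM in parental libraries. MRPL24 stood at 109.4 ± 6.14 FPKM in trastuzumab and 89.6 ± 1.68 FPKM in parental libraries, so its order with MRPS16 differed between the groups. The lowest 3 were MRPL46 at 3.70 ± 0.27 and 3.18 ± 0.20 FPKM, MRPL50 at 2.19 ± 0.40 and 3.41 ± 0.55 FPKM, and MRPL42 at 2.23 ± 0.08 and 3.21 ± 0.30 FPKM, in trastuzumab and parental libraries. MRPL42 and MRPL50 did not differ beyond their spread in either group. The order of the 78 genes was nearly the same in both groups, with a Spearman's rho of 0.98. The authors' gene length bears on these levels. Dividing the counts by the FPKM values gave 18619 bases for MRPL42, a long gene with 16393 exonic bases in GENCODE 29. For MRPL50 these lengths were 3789 and 3332 bases. They differed far more for MRPL19, at 10163 bases by the FPKM values and 4601 in GENCODE 29. Wide differences were also found for MRPL30 (5401 and 2898), MRPL15 (2012 and 1191), MRPL41 (660 and 1262) and MRPL53 (779 and 1344), among others. The doubt about the gene model stated for MRPL19 applies to these genes too.

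Reads of overlapping genes are a limit, because the sources used here do not say how the counting treated strand or overlap. An overlap with another tested gene was found for 38 of the 78 members, and on the same strand for 13 of these. Among the 40 that overlapped none, 12 rose and 10 fell. MRPL19, for one, held within its bounds, on its own strand, a sense intronic gene of 466 bases that averaged 0.249 ± 0.044 CPM in trastuzumab and 0.572 ± 0.187 CPM in parental libraries (SD, n = 3 each), far below MRPL19 itself. On the other strand MRPL19 overlapped GCFC2, which was also lower, at 11.9 ± 1.14 CPM in trastuzumab and 17.4 ± 1.91 CPM in parental libraries (SD, n = 3 each). The bases counted for MRPL19 may differ from the gene model used for these overlaps, because its FPKM values imply a longer gene. MRPL53, at chr2:74471958-74473322 on the - strand of hg38, overlapped CCDC142 on its own strand and was the most variable member. It had 34.3, 6.66 and 9.63 CPM in trastuzumab libraries and 11.6, 18.5 and 12.0 CPM in parental libraries. Trastuzumab replicate 1 stood above all others, and the remaining trastuzumab libraries below all parental ones. The log2 fold change was 0.26 ± 0.75 (SE, n = 3 per group; edgeR adjusted p = 0.823), and without trastuzumab replicate 1 it was -0.79 ± 0.26 (edgeR adjusted p = 0.0521). CCDC142 was the reverse, at 27.0, 57.0 and 50.5 CPM in trastuzumab libraries and 37.0, 30.5 and 37.7 CPM in parental libraries. The sum of both genes varied little within a group, with 61.2, 63.6 and 60.2 CPM in trastuzumab and 48.6, 48.97 and 49.8 CPM in parental libraries. This sum was higher in every trastuzumab library than in every parental one. MRPL53 held 56.0%, 10.5% and 16.0% of that sum in the trastuzumab libraries and 23.8%, 37.7% and 24.2% in the parental libraries.

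**Figure D5:**
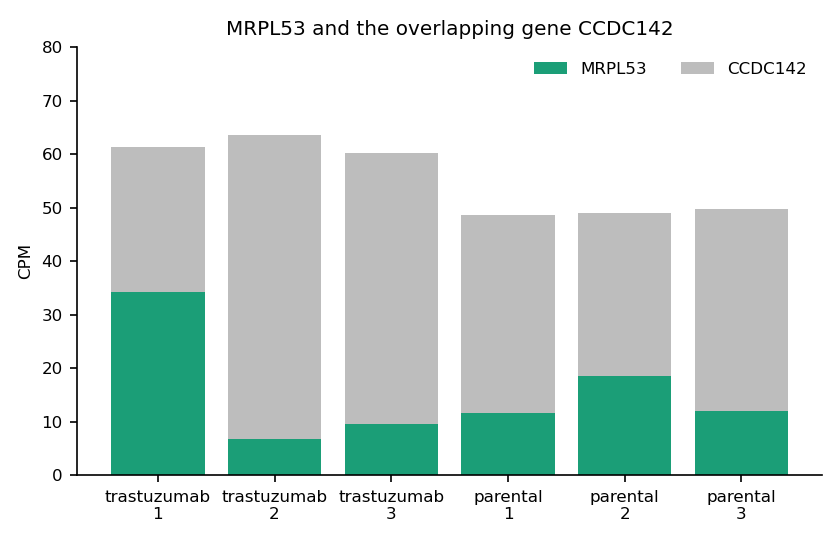
CPM of MRPL53 (green) and of CCDC142, which overlaps it on the same strand (grey), stacked for each library with trastuzumab libraries on the left. The stacked heights are alike within a group, at 60.2 to 63.6 CPM in trastuzumab and 48.6 to 49.8 CPM in parental libraries, while the green share differs between libraries.

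The members lay on 21 chromosomes. Copy number can differ along chromosomes in this aneuploid line, so each member was set beside its neighbours. The median log2 fold change of up to 10 tested protein-coding genes on either side was taken. This gave 20 genes per member, or 18 for MRPL28 and 14 for MRPL41. Across the 78 members Spearman's rho between their own fold change and this median was 0.64, and 0.07 when both came from the corrected fit. The genes around MRPL19 had a median of -0.0027, those around MRPS35 of -0.67 and those around MRPL23 of 0.42. In the corrected fit these medians were 0.04, -0.24 and 0.04. MRPL46 and MRPS11 stand head to head on chromosome 15 with 33 bases between them, and both were higher, by 0.29 ± 0.08 and 0.25 ± 0.07. With correction MRPL46 was at 0.58 ± 0.07 (edgeR adjusted p = 1.26e-05) and MRPS11 at 0.14 ± 0.06 (edgeR adjusted p = 0.113).

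Promoters of 69 members were found in RefSeq's promoter sequences on GRCh38.p14, as windows of 250 bases before and 50 after the gene start. An ETS motif (CCGGAAG on either strand), bound by factors such as GABPA, was present in 42.0% of them, beside 18.6% of the tested protein-coding genes and 10.7% of all promoters. The YY1 motif AAGATGGC was in 20 of the 69 members' promoters, 5.20% of those of the tested protein-coding genes and 3.03% of all promoters. The NRF1 motif GCATGCGC was in 8.70%, 5.36% and 3.27% of the same sets. Both strands were searched for each, and in none of the 69 members' promoters did matches of different motifs share bases. Within the 250 bases before the start, YY1 matches were found only in MRPL32, MRPL36, MRPL47, MRPL52 and MRPS12. The other members' YY1 matches lay at least partly in the 50 bases after the start. Members that rose and members that fell both held the ETS motif, with 15 of 28 and 6 of 13. The 250 bases before the start are shown for 2 genes that rose and 2 that fell, with the ETS motif in capitals. A motif here is a match of letters, not a measured binding site.
MRPS18A, higher, chr6:43687792-43688041, - strand: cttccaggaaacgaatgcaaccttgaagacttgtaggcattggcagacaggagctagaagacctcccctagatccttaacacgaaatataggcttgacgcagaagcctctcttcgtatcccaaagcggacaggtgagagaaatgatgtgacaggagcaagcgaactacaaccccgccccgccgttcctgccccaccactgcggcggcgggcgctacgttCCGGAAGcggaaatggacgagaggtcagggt
MRPL20, higher, chr1:1407294-1407543, - strand: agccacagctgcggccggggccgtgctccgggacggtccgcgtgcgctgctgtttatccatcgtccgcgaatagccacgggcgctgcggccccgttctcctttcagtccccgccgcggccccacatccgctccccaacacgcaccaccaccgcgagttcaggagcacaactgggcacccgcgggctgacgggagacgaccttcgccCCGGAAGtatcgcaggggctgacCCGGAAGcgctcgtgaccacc
MRPS31, lower, chr13:40771191-40771440, - strand: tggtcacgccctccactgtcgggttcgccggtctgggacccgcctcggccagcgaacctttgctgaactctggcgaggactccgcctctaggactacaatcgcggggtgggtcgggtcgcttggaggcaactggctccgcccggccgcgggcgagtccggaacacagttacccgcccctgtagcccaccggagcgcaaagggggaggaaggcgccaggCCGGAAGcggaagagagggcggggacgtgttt
MRPS10, lower, chr6:42217862-42218111, - strand: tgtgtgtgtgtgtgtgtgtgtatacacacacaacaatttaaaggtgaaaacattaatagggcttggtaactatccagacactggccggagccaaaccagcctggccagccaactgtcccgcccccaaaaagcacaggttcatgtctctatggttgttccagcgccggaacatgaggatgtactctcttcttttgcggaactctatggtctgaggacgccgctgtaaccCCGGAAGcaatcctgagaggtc
The motif began 31 bases before the start in MRPS18A, 44 and 21 bases before it in MRPL20, 32 in MRPS31 and 22 in MRPS10. Of the factors themselves, GABPA was at 15.0 ± 2.25 CPM in trastuzumab and 22.3 ± 1.93 CPM in parental libraries (SD, n = 3 each). Its log2 fold change was -0.57 ± 0.11 (edgeR adjusted p = 0.000291) and -0.04 with correction (edgeR adjusted p = 0.825).

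Other genes of mitochondrial translation also held both rises and falls. Of all protein-coding genes tested 28.6% were called higher and 31.1% lower (21.7% and 22.8% with correction). Of 6 ribosomal proteins with other symbols 2 rose and 1 fell (2 higher and 3 lower with correction). AURKAIP1 and CHCHD1, both of the small subunit, rose by 0.41 and 0.38, and PTCD3, a pentatricopeptide protein of the small subunit near the mRNA entry, fell by 0.66 ± 0.06 (edgeR adjusted p = 2.36e-07). With correction AURKAIP1 was at -0.01 (edgeR adjusted p = 0.878) and PTCD3 at -0.19 (edgeR adjusted p = 0.0154). Of 30 assembly factors 17 rose and 6 fell (8 and 3 with correction), with a median of 0.23. RCC1L rose to 214.4 ± 5.07 CPM in trastuzumab, against 141.0 ± 9.94 CPM in parental libraries, and MPV17L2 fell to 13.2 ± 1.79 CPM, against 22.4 ± 1.53 CPM (SD, n = 3 each). Of 16 translation factors 4 rose and 5 fell (1 and 1 with correction). GFM1, the elongation factor G of mitochondria, fell by 0.50 ± 0.06 (edgeR adjusted p = 1.3e-06) and was at 0.0037 with correction (edgeR adjusted p = 0.964). Of 20 aminoacyl-tRNA synthetases of mitochondria 8 rose and 5 fell (5 and 4 with correction), and IARS2, which charges the isoleucine tRNA, fell to 176.7 ± 5.89 CPM in trastuzumab, against 333.4 ± 8.86 CPM in parental libraries (SD, n = 3 each). Of 24 genes of mitochondrial transcription and RNA processing 6 rose and 10 fell (3 and 5 with correction), among the falls LRPPRC, which keeps mitochondrial mRNAs stable and polyadenylated. It changed by -0.84 ± 0.06 (edgeR adjusted p = 6.55e-09) and by -0.34 with correction (edgeR adjusted p = 7.25e-06). Of 8 regulators of mitochondrial biogenesis 2 rose and 4 fell (1 and 3 with correction), and PPARGC1A was not tested for want of counts.

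Genes of the mitochondrial genome, which include those of the ribosome's rRNAs, had lower counts. Of 15 genes of the mitochondrial genome 14 were lower in trastuzumab and none was higher, in both fits, with a median log2 fold change of -0.76. The rRNA of the large subunit, MT-RNR2, stood at 1385 ± 47.9 CPM in trastuzumab and 2916 ± 183.9 CPM in parental libraries, and that of the small subunit, MT-RNR1, at 489.7 ± 32.8 and 907.3 ± 65.4 CPM (SD, n = 3 each). Both differences passed the test (edgeR adjusted p = 5.27e-11 and 1.72e-08), and near-identical nuclear copies make these counts uncertain. Whether library preparation kept rRNA to the same degree in all libraries was not tested, so these counts may not give the amount of rRNA. Nuclear subunits of the respiratory chain, 77 genes, had 28 rises and 16 falls (36.4% and 20.8%) with a median of 0.09. In the corrected fit 25 of them were higher and 23 lower, with a median of 0.01. Of the 79 cytosolic ribosomal proteins 71 rose and none fell, with a median log2 fold change of 0.53, and 66 were higher in the corrected fit.

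Library totals were 71015138, 82857810 and 81666595 counts in trastuzumab and 72353624, 71767118 and 72095127 counts in parental libraries, so that 3 counts, the limit a count of 0 allows, are 0.0362 to 0.0422 CPM. All members averaged at least 10 CPM over the 6 libraries. The mitochondrial genome took 2.48%, 2.41% and 2.79% of counts in trastuzumab and 4.03%, 4.16% and 3.63% in parental libraries, and its part in the members' values was not tested. Of 8 mammary epithelial markers 7 averaged at least 10 CPM, and their sum ranged from 23250 to 24800 CPM in trastuzumab and from 20660 to 22160 CPM in parental libraries. The 6 fibroblast markers summed to between 5.99 and 10.7 CPM in trastuzumab and 9.40 and 19.7 CPM in parental libraries, and the 5 blood markers to at most 1.99 CPM, with CD3E, HBB and LYZ too low to be tested. Of the 3 endothelial markers PECAM1 averaged 0.176 CPM in trastuzumab and 0.0678 CPM in parental libraries, VWF 3.51 and 3.75 CPM, and CDH5 stood at 79.3 ± 3.71 CPM in trastuzumab and 26.4 ± 1.25 CPM in parental libraries (SD, n = 3 each). In bulk RNA of this kind a change in the share of cells with a gene's RNA and a change in RNA per cell cannot be told apart.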

How the data were processed

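The authors deposited raw counts per gene for each of the 6 libraries, as whole numbers without normalization, and FPKM values to 2 decimals, counts divided by gene length and library total. Per the labels' protocols, 1 µg of total RNA was taken with a directional NEBNext Ultra II kit, and the submitters' processing notes name STAR 2.4.2a and hg38. The sources used here do not state the counting program, its strand setting or its annotation. Positions, exons, GC content and coding sequences came from GENCODE 29, symbols from a gene name reference. GC content was taken over all transcripts of a gene together, so bases shared by several transcripts counted more than once. The test on these counts was that of edgeR 4.0.16 under R 4.3.3 (scaling by TMM, filterByExpr, robust quasi-likelihood F test, no covariate), adjusting p over all 17854 genes tested. The correction fitted a spline of 5 degrees of freedom on GC content and exonic length per library and used it as offsets, on 17649 genes. Alternatives were other scalings and filters, DESeq2 1.42.0, limma 3.58.1 (voom, or on log2(FPKM + 1) and log2(FPKM + 0.1)), a replicate block and leaving out each library. The steps were tested on simulated data. The members, lists and tests were chosen with earlier results of these data known, so no test was run over the members as a set. The text names, by rule, the 8 largest called rises and falls of each subunit, opposite calls, the 3 highest and lowest FPKM, the S18 paralogues, MRPS30, MRPS36, and up to 4 genes per other list; further genes were chosen after their values were seen. Precision is set by 71015138 to 82857810 counts per library and 3 libraries per group; limits on a count of 0 cover counting error only.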

Additional observations from a re-analysis of the deposited data

How the results depend on the processing

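With 3 libraries per group, calls near the threshold were fragile: 20 of the 30 called rises and 11 of the 15 called falls were kept in all 6 fits that left out a library. Those fits gave 22 to 30 members higher and 11 to 15 lower (large subunit 13 to 20 and 7 to 9, small subunit 8 to 12 and 4 to 6), medians of 0.0562 to 0.1202 (large) and 0.0471 to 0.1016 (small), a large over small difference of -0.0402 to -0.0319, and 3800 to 4295 higher and 4057 to 4394 lower over all genes. That difference was -0.0491 with subunits by structure, where the small median was 0.1059, and -0.0466 with summed FPKM, a setting chosen after seeing the data. Medians (large, small) were 0.1469 and 0.1252 under upper quartile factors, 0.0396 and 0.0178 with library totals alone, 0.0049 and 0.0026 by limma on log2(FPKM + 1), and 0.005 and 0.0028 on log2(FPKM + 0.1). Limma without a filter called 16 members higher (10 and 6), beside 30 (18 and 12) in the reported fit, and the cause was not tested.

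The GC correction alone gave 1 small subunit fall and a large median of 0.0466. GC and length together gave 18 higher, 10 of them and 14 of the falls in the large subunit, with a large median of -0.0251. With a replicate block added, 16 were higher (9 and 7) and the large median was -0.0268. Over all 78 members the sign was opposite in 35 under GC, 34 under GC and length and 35 with the block, 17, 12 and 13 of them called without correction. Among the genes named by rule, the reversed values, given as GC, GC and length, and GC and length with the block, were those of MRPL54 (-0.0067, -0.1006, -0.0998), MRPL42 (0.0561, 0.2444, 0.2447), MRPL47 (0.305, 0.1625, 0.1644), MRPL37 (-0.0435, -0.1039, -0.104), MRPL38 (-0.1807, -0.197, -0.1985), MRPL12 (-0.1079, -0.1944, -0.1942), MRPS26 (-0.0479, -0.1374, -0.1372), MRPS2 (-0.1109, -0.1634, -0.1631), MRPS10 (0.1882, 0.0732, 0.0743), MRPS18C (0.4021, 0.3663, 0.3662) and UQCRB (0.0263, 0.1436, 0.1397). Under both of the last 2 fits alone they were MRPS34 (-0.0602, -0.058), MRPS18B (-0.1341, -0.1349), AURKAIP1 (-0.0127, -0.0114) and GFM1 (0.0037, 0.0028). Under GC alone they were MRPL50 (0.0059), MRPL1 (0.1164), MRPL35 (0.0611), MRPL30 (0.046), MRPS31 (0.0115) and MRPS36 (0.1254), and MRPL35 was at 0.0006 under GC and length with the block.

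Replicate numbers did not pair the libraries: same-numbered libraries correlated at -0.00561, 0.0508 and 0.0486 after subtracting group means. With the number as a block 31 members were higher and 14 lower, and 4219 and 4434 of all genes.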
